A study of Mus musculus with 12 samples.

Results

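Genes that mark T cells and killer cells were followed through the hearts of C57BL/6J mice, an inbred laboratory strain. The set holds 10 genes, found by mapping the Ensembl identifiers of the deposited table to mouse symbols, out of 26781 genes in the table. They are the T cell receptor chains Cd3e, Cd3g, Cd3d and Cd247, the kinase gene Lck, the coreceptor genes Cd8a and Cd4, and the killer cell genes Nkg7, Gzma and Klrd1. Heart RNA was sequenced in 12 libraries, 3 in each of 4 groups: MI+CIH, MI, CIH and sham. MI is taken to stand for myocardial infarction and CIH for chronic intermittent hypoxia, in which oxygen drops again and again as in sleep apnoea, and MI+CIH mice carried both. All groups shared the strain and the tissue, and the labels used here give no age, sex, time after surgery or length of hypoxia. They do not say whether each library came from its own animal, so p-values measure the spread between libraries, which may be in part technical.

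T cells recognise peptides through a receptor whose variable chains do not signal themselves. The CD3 proteins and the zeta chain carry the signal inwards, Lck starts it, and CD4 or CD8 brings Lck to the receptor. Cytotoxic T cells and natural killer cells kill with granules that hold granzymes and perforin. T cells are scarce in an uninjured heart, enter it after infarction, and take part in healing and in later remodelling.

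The genes of the CD3 chains lie side by side on chromosome 9 within 40056 bases (GRCm38, GENCODE M21). Cd3e (ENSMUSG00000032093) spans 44998740 to 45009627, Cd3d (ENSMUSG00000032094) 44981786 to 44987339 and Cd3g (ENSMUSG00000002033) 44969572 to 44980431. Cd3g and Cd3d are read in opposite directions from starts 1355 bases apart. Cd247 (ENSMUSG00000005763), the zeta chain gene, lies apart at 165788681 to 165877277 on chromosome 1. The promoters of these 4 receptor chains are printed because Cd3e and Cd3g were called in a comparison below and Cd3d and Cd247 were not, although all encode parts of 1 receptor. Each window runs from 250 bases before to 50 after the start, 5′ to 3′ on the gene's strand, as RefSeq gives it on GRCm38.p6. Capitals mark an E-box, the letters CAGGTG or their reverse complement CACCTG. This is the letter pattern that E proteins such as the T cell factors E2A and HEB can bind.
Cd3e, chr9:45009562-45009861, minus strand: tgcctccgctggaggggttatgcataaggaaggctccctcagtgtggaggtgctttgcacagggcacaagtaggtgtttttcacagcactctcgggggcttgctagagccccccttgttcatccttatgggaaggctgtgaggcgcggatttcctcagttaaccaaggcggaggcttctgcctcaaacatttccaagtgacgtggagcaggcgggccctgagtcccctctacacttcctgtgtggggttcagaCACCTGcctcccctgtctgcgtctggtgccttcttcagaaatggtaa
Cd3g, chr9:44980382-44980681, minus strand: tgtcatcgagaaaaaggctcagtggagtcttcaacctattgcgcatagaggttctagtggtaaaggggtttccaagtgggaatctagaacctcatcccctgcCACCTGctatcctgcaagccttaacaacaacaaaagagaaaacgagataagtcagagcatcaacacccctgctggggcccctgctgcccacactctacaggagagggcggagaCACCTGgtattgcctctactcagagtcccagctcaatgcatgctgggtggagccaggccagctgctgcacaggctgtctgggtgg
Cd3d, chr9:44981536-44981835, plus strand: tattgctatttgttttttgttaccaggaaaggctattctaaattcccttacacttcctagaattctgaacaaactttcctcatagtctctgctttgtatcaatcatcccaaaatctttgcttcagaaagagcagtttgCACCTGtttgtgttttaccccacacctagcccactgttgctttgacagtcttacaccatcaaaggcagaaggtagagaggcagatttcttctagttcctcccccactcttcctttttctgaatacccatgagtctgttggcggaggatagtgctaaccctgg
Cd247, chr1:165788431-165788730, plus strand: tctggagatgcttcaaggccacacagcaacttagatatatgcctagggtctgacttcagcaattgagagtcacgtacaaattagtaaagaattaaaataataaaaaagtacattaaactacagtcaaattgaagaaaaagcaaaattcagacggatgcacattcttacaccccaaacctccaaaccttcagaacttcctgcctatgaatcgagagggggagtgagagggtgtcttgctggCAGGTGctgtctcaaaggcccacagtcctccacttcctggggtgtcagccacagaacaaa

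The E-box of Cd3e began at position 3 after the start, that of Cd3d at position -112 and that of Cd247 at position -10, and Cd3g held 2, at -148 and -35. RefSeq windows were found for 8 of the 10 genes, with 2 starts for Lck, and 6 of these 8 held the E-box: the 4 receptor chains, Lck and Gzma. The same letters occurred in 7 of the 9 windows of these genes, and in 20.2% of all 32851 mouse promoter windows. The ETS pattern AGGAAG or CTTCCT, which Ets1 and its relatives can bind, was found at 5 of the 8 genes (Cd247, Cd3d, Cd3e, Lck and Nkg7), against 35.4% of all windows. The RUNX pattern TGTGGT or ACCACA was found at 3 (Gzma, Lck and Nkg7), against 16.8%. The TCF/LEF pattern TCAAAG or CTTTGA was found at 2 (Cd247 and Cd3d), against 16.0%, and the GATA pattern AGATAA or TTATCT at 1 (Cd3g), against 11.2%. Counted by window, the ETS pattern was in 6 of the 9, RUNX in 3, TCF/LEF in 2 and GATA in 1. None of the 5 patterns contains another, both strands were searched, and Cd8a held none of them in its window. The E-box did not separate the chains that were called from those that were not, since all 4 windows held it. These matches are descriptions of the letters and not of binding.

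Levels are in FPKM, the authors' read counts divided by exon length and by library total. All 10 genes were low. Their means over the 12 libraries ranged from 0.134 FPKM for Cd3d to 0.772 FPKM for Nkg7, between the 29.1 and 48.2 percentiles of genes above 0. The deposited values step in whole reads for 9 of the 10 genes, all but Gzma. Library totals recovered in this way were 26.1 to 33.4 M reads. Cd3e therefore rested on 7 to 103 reads in a library and Klrd1 on 0 to 17. A count of 0 in a library allows up to 3 reads, which is 0.0249 FPKM for Cd8a and 0.0277 FPKM for Cd3g in CIH 3, and 0.0793 FPKM for Klrd1 in sham 1. These limits cover counting error only. In bulk heart RNA, fewer T cells and less RNA per T cell cannot be told apart.

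Several libraries stood apart before any comparison. The heart muscle genes, 7 contractile and calcium genes such as Myh6, summed to 4935 to 12061 FPKM in MI+CIH, 12563 to 13592 in MI, 14448 to 17063 with CIH alone and 13842 to 16298 in sham, with MI+CIH 3 lowest. The same library held the most neutrophil transcripts, 246 FPKM over 8 genes, against 3.59 and 14.1 FPKM in the other MI+CIH libraries and 2.64 to 13.2 FPKM elsewhere. The 7 lung and airway genes, which a heart should lack, summed to 310 to 3483 FPKM in MI+CIH, 0.128 to 2.09 in MI, 0.693 to 16.7 with CIH alone and 1.51 to 543 in sham. MI+CIH 2 was highest at 3483 FPKM and sham 2 was the sham library at 543. Since every MI+CIH library held airway transcripts, no choice of libraries leaves an MI+CIH group without them. The calls of the 10 genes and the counts of the related lists are given with and without the libraries concerned, and the part of lung tissue in them was not tested.

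Cd3e, the epsilon chain that every complete T cell receptor needs, stood at 0.790, 0.890 and 0.376 FPKM in MI+CIH, 0.167, 0.293 and 0.253 in MI, 0.0958, 0.147 and 0.0517 in CIH, and 0.241, 0.347 and 0.218 in sham. The lowest MI+CIH library lay above the highest library of each other group, and every CIH library lay below every sham library. Cd3g, the gamma chain, stood at 0.610, 0.917 and 0.262 FPKM in MI+CIH, 0.109, 0.160 and 0.337 in MI, 0.0978, 0.220 and 0 in CIH, and 0.155, 0.358 and 0.202 in sham. Its MI+CIH libraries lay above all CIH libraries in FPKM and overlapped MI and sham through MI+CIH 3. In reads, MI+CIH 3 and CIH 2 were level, at 24 each. Over the 12 libraries Cd3e and Cd3g varied together, with Pearson's r of 0.94 on the log2(FPKM + 0.5) scale.

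The other receptor chains did not follow this order. Cd3d, the delta chain, stood at 0.0423, 0.117 and 0.197 FPKM in MI+CIH, 0.268, 0.165 and 0.165 in MI, 0, 0.165 and 0 in CIH, and 0.0747, 0.195 and 0.218 in sham. It rested on 18, 32, 10 and 26 reads summed over the 3 libraries of MI+CIH, MI, CIH and sham, and its groups overlapped. Cd247 stood at 0.230, 0.212 and 0.228 FPKM in MI+CIH, 0.189, 0.197 and 0.307 in MI, 0.333, 0.365 and 0.113 in CIH, and 0.178, 0.319 and 0.408 in sham. The 4 groups of Cd247 overlapped. The annotation places 3007 of its 5329 exon bases on exons of Pou2f1, which encodes the widely used transcription factor Oct-1 and is read from the opposite strand. Pou2f1 averaged 2.15 ± 0.633 FPKM in MI+CIH, 1.98 ± 0.102 in MI, 1.84 ± 0.706 in CIH and 1.92 ± 0.189 in sham (SD, n = 3 each). The strand setting of the counting is not given in the sources used here, so the Cd247 level is uncertain. Cd247 also shares 206 exon bases with Gm16565, which is read from the same strand. Gm16565 averaged 0.491 ± 0.156 FPKM in MI+CIH, 0.496 ± 0.167 in MI, 0.999 ± 0.440 in CIH and 0.917 ± 0.178 in sham. Its part in the Cd247 values was not tested. Of Cd3e, 135 of 4080 exon bases are shared with an antisense gene, Gm48719. Cd247 varied with Cd3e at r of -0.07 and with Lck at -0.30, and Cd3d varied with Cd3e at 0.06.

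Lck (ENSMUSG00000000409, chromosome 4, 129548344 to 129573641), the kinase that starts receptor signalling, stood at 0.786, 1.28 and 0.683 FPKM in MI+CIH, 0.865, 0.575 and 0.717 in MI, 0.0971, 0.347 and 0.124 in CIH, and 0.613, 0.484 and 0.180 in sham. Its MI+CIH libraries lay above all CIH and all sham libraries and overlapped MI. Cd4 (ENSMUSG00000023274, chromosome 6, 124864692 to 124888221), the coreceptor of helper T cells that some macrophages and dendritic cells also carry, stood at 0.980, 1.31 and 0.938 FPKM in MI+CIH, 0.556, 0.826 and 0.736 in MI, 0.247, 0.349 and 0.142 in CIH, and 0.244, 0.255 and 0.662 in sham. All 3 MI+CIH libraries lay above all 9 others. Cd8a (ENSMUSG00000053977, chromosome 6, 71373427 to 71379173), the alpha chain of the coreceptor of cytotoxic T cells, stood at 0.454, 1.30 and 0.324 FPKM in MI+CIH, 0.607, 0.627 and 0.651 in MI, 0.0489, 0.239 and 0 in CIH, and 0.0373, 0.185 and 0.145 in sham. Both groups with infarction lay above both groups without it, library by library. MI was tight while MI+CIH was spread on both sides of it.

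Nkg7 (ENSMUSG00000004612, chromosome 7, 43437073 to 43438249), a granule protein gene of killer cells and cytotoxic T cells, stood at 1.47, 1.0 and 0.703 FPKM in MI+CIH, 1.03, 0.327 and 0.182 in MI, 0.428, 1.11 and 0.297 in CIH, and 1.07, 0.737 and 0.902 in sham. It was the highest of the 10 genes in sham and its groups overlapped in every comparison. Gzma (ENSMUSG00000023132, chromosome 13, 113093825 to 113100981), the gene of granzyme A, stood at 1.05, 0.402 and 0.691 FPKM in MI+CIH, 0.814, 0.426 and 0.228 in MI, 0.202, 0.511 and 0 in CIH, and 0.309, 0.0807 and 0.263 in sham. Its MI+CIH libraries lay above all sham libraries only. Klrd1 (ENSMUSG00000030165, chromosome 6, 129591782 to 129598775), which encodes CD94, the partner of the NKG2 receptors of killer cells, stood at 0.479, 0.220 and 0.474 FPKM in MI+CIH, 0, 0.0584 and 0.130 in MI, 0.139, 0.187 and 0 in CIH, and 0, 0.0553 and 0.0257 in sham. In FPKM every MI+CIH library of Klrd1 lay above every other library, but MI+CIH 2 and CIH 2 held 8 reads each. These values rest on 41, 7, 13 and 3 reads summed over MI+CIH, MI, CIH and sham.

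**Figure D1:**
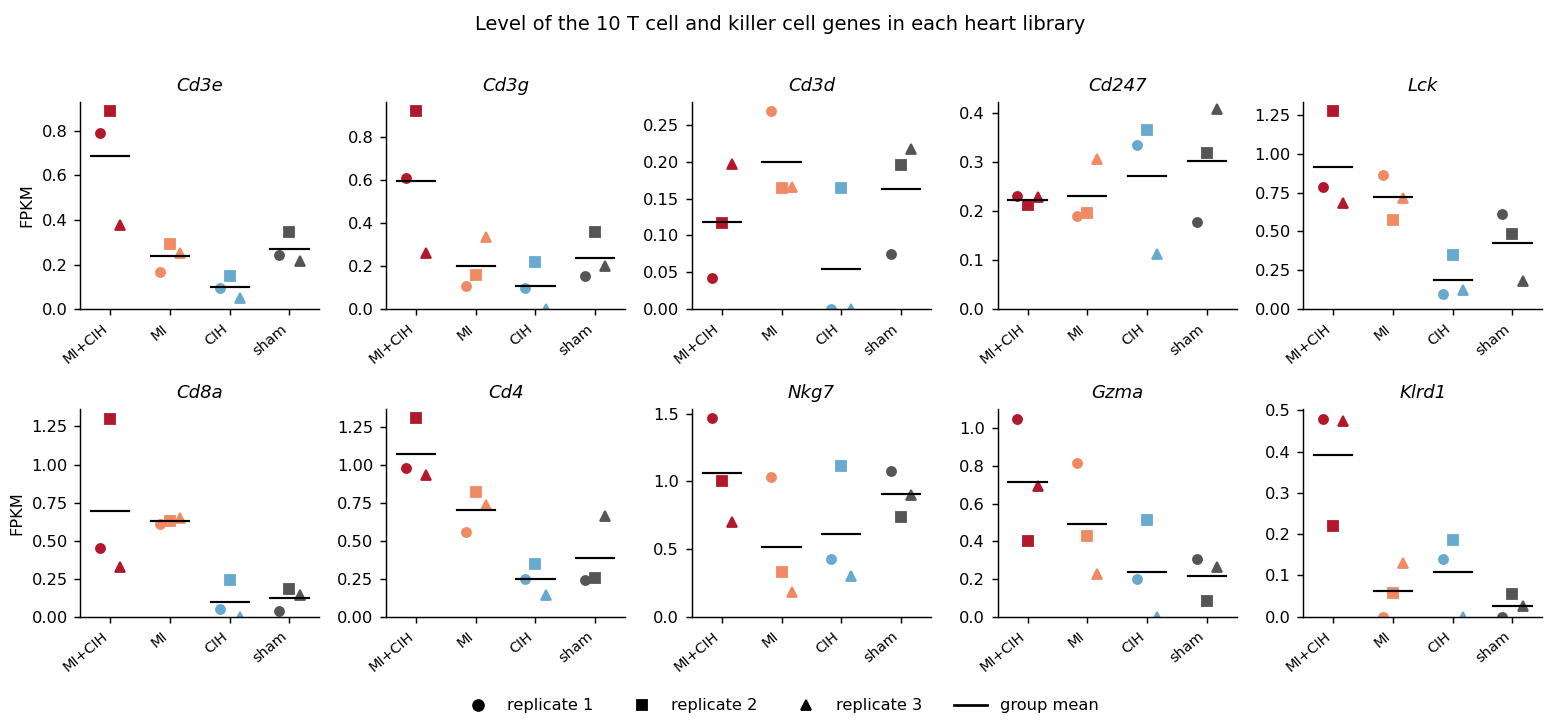
FPKM of each of the 10 genes in the 12 heart libraries, 1 panel per gene with its own axis from 0; points are libraries, shaped by replicate number, and bars are group means of 3 libraries. Cd3e, Cd4 and Klrd1 have all 3 MI+CIH libraries above all others, Cd8a has both infarction groups above the others, and Cd3d and Cd247 show no order of groups.

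The tests compared log2(FPKM + 0.5) with limma over all 12 libraries, with Benjamini-Hochberg adjustment over all genes tested in each of 6 comparisons. A fold change on this scale understates the ratio of such low genes, so the ratio of group means is given too. Lck, Cd8a, Cd4, Nkg7 and Gzma reached 0.5 FPKM in at least 3 libraries and belonged to the 15503 genes of the main test. Cd8a did so through 3 MI libraries and MI+CIH 2, and Lck and Cd4 through 6 libraries with infarction and 1 sham library each. Such genes pass the filter because they are high in those groups, so counts are given over all 10. Cd3e, Cd3g, Cd3d, Cd247 and Klrd1 lay below the filter, and their tests come from a fit without filter over 25484 genes above 0.

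Infarction under hypoxia, MI+CIH against CIH, asks how hearts with infarction differed when both groups had hypoxia, and 6 of the 10 genes were higher in MI+CIH. Of these, Cd4, Lck and Cd3e passed with any 1 of the 6 libraries left out. The groups also differed in lung, fat and leukocyte transcripts, whose part was not tested. Cd4, Lck and Cd8a rose among the 5 genes above the filter, where 19.9% of all genes tested rose. Cd3e, Cd3g and Klrd1 rose among the 5 below it, where 12.4% of all genes above 0 rose. None of the 10 fell, where 8.26% and 4.18% of all genes did. The libraries of these 6 genes did not overlap in FPKM, all higher in MI+CIH, against 21.3% of all genes above 0. In reads, Cd3g had 24 in both MI+CIH 3 and CIH 2, and Klrd1 had 8 in both MI+CIH 2 and CIH 2. Only the library totals set these apart. The median log2 fold change was 0.78 over the 10 genes and 0.20 over all genes that passed the filter.

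Cd4 averaged 1.08 ± 0.205 FPKM in MI+CIH and 0.246 ± 0.103 in CIH (SD, n = 3 each), a ratio of 4.38 and a log2 fold change of 1.08 ± 0.23 (SE, limma adjusted p = 0.00676). Lck averaged 0.915 ± 0.317 and 0.189 ± 0.137 FPKM in MI+CIH and CIH, a ratio of 4.83, with a log2 fold change of 1.03 ± 0.26 (limma adjusted p = 0.0130). Cd8a averaged 0.692 ± 0.530 and 0.0958 ± 0.126 FPKM in MI+CIH and CIH, a ratio of 7.22, with 0.93 ± 0.30 (limma adjusted p = 0.0369). On this log2(FPKM + 0.5) scale the coreceptor and kinase genes lay about equally far apart, but by ratio of means Cd8a lay furthest. Cd8a was also the most scattered of them. Cd3e averaged 0.685 ± 0.272 and 0.0981 ± 0.0475 FPKM in MI+CIH and CIH, a ratio of 6.99, with 0.96 ± 0.18 (limma adjusted p = 0.00832). Cd3g averaged 0.596 ± 0.328 and 0.106 ± 0.110 FPKM in MI+CIH and CIH, a ratio of 5.63, with 0.83 ± 0.24 (limma adjusted p = 0.0414). Klrd1 averaged 0.391 ± 0.148 and 0.109 ± 0.0970 FPKM in MI+CIH and CIH, a ratio of 3.60, with 0.55 ± 0.16 (limma adjusted p = 0.0434).

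The other killer cell genes and receptor chains did not pass in MI+CIH against CIH. The log2 fold change was 0.74 ± 0.33 for Gzma (limma adjusted p = 0.112) and 0.53 ± 0.34 for Nkg7 (0.269). It was 0.16 ± 0.15 for Cd3d (0.518) and -0.07 ± 0.17 for Cd247 (0.833).

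The calls differed in how far they rested on single libraries. Cd4 passed without any 1 of the 6 libraries compared, with limma adjusted p from 0.0117 to 0.0262, and so did Lck (0.0148 to 0.0430) and Cd3e (0.00641 to 0.0329). Cd8a did not pass without MI+CIH 2, the library with the most lung transcripts (log2 fold change 0.59, limma adjusted p = 0.102), without CIH 1 (0.89, 0.0800) or without CIH 3 (0.82, 0.111). Cd3g did not pass without MI+CIH 1 (0.79, 0.0891), MI+CIH 2 (0.62, 0.101), CIH 1 (0.82, 0.0841) or CIH 3 (0.70, 0.138). Klrd1 did not pass without MI+CIH 1 (0.47, 0.101), MI+CIH 3 (0.48, 0.122), CIH 1 (0.59, 0.0661) or CIH 3 (0.41, 0.150). Without sham 2 and MI+CIH 2 together, the log2 fold change was 0.98 for Cd4 (limma adjusted p = 0.0229) and 0.83 for Cd3e (0.0222), which passed. It was 0.86 for Lck (0.0518), which did not.

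**Figure D2:**
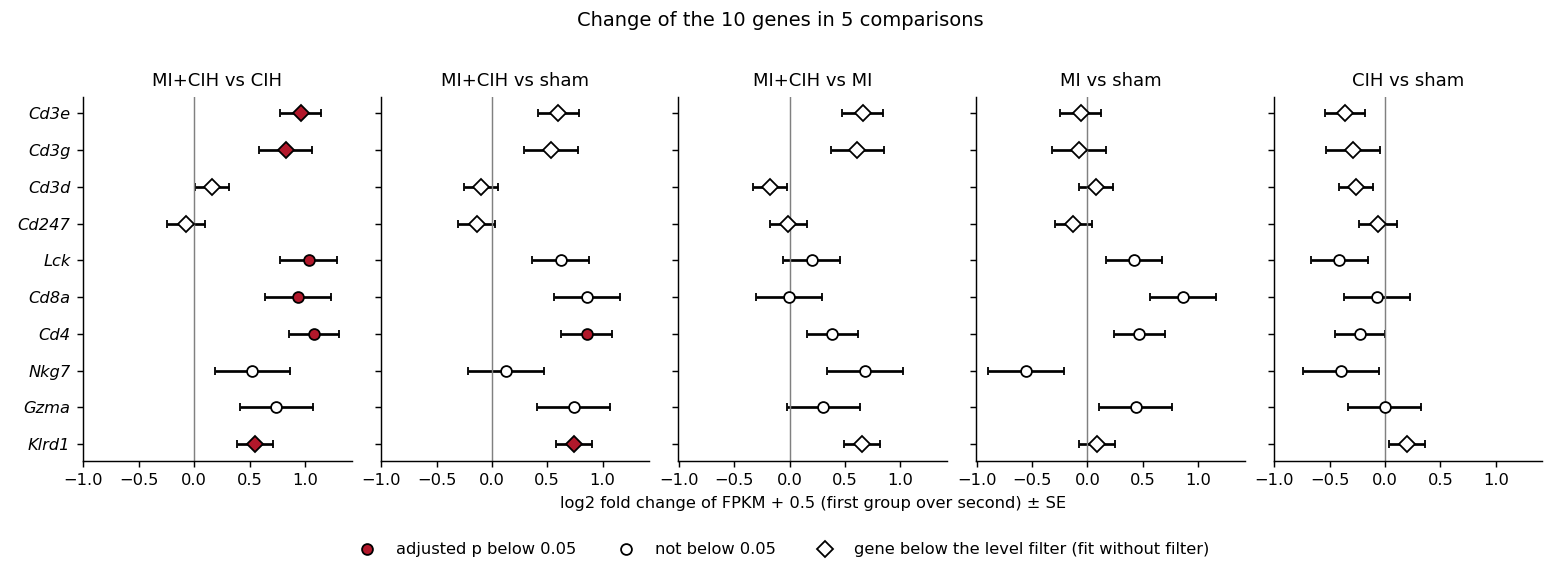
Log2 fold change of FPKM + 0.5 with its standard error for the 10 genes in 5 comparisons, the first group over the second; filled symbols have a limma adjusted p below 0.05 and diamonds are genes below the level filter. Filled symbols appear in MI+CIH vs CIH (Cd3e, Cd3g, Lck, Cd8a, Cd4 and Klrd1) and in MI+CIH vs sham (Cd4 and Klrd1), and in no other panel.

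In hearts with both conditions, MI+CIH against sham, Cd4 and Klrd1 were higher, and none of the 10 fell, where 5.51% of genes above the filter and 2.68% of all genes above 0 did. Cd4 averaged 1.08 ± 0.205 FPKM in MI+CIH and 0.387 ± 0.238 in sham (SD, n = 3 each), a ratio of 2.78 and a log2 fold change of 0.85 ± 0.23 (limma adjusted p = 0.0277). It was the 1 gene called of the 5 above the filter, where 11.3% of all genes rose. Klrd1 averaged 0.391 ± 0.148 and 0.0270 ± 0.0277 FPKM in MI+CIH and sham, with 0.74 ± 0.16 (limma adjusted p = 0.0220), and was the 1 gene called of the 5 below it, where 6.77% of all genes rose. Its ratio of means, 14.5, stands on 3 reads in sham. The libraries of 6 of the 10 genes did not overlap, all higher in MI+CIH (Cd3e, Lck, Cd8a, Cd4, Gzma and Klrd1), against 18.0% of all genes above 0. The 4 of them that did not pass had log2 fold changes of 0.60 for Cd3e (limma adjusted p = 0.0687), 0.62 for Lck (0.118), 0.86 for Cd8a (0.0696) and 0.74 for Gzma (0.143).

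Neither call held without every library. Cd4 in MI+CIH against sham did not pass without sham 1 (log2 fold change 0.74, limma adjusted p = 0.103), sham 2 (0.75, 0.0941), MI+CIH 2 (0.75, 0.0638) or MI+CIH 3 (0.92, 0.0558). Klrd1 did not pass without sham 1 (0.71, 0.0852), sham 2 (0.78, 0.0534), sham 3 (0.74, 0.0612) or MI+CIH 3 (0.67, 0.0676). Cd3e, not called over all libraries, passed without MI+CIH 3 (0.80, 0.0260).

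Hypoxia added to infarction, MI+CIH against MI, gave no call among the 10 genes, where 0.329% of genes above the filter and 0.322% of all genes above 0 rose or fell. At an unadjusted p below 0.05 stood Cd3e, Cd3g and Klrd1. Their log2 fold changes were 0.66 ± 0.18 for Cd3e (limma adjusted p = 0.125), 0.61 ± 0.24 for Cd3g (0.249) and 0.65 ± 0.16 for Klrd1 (0.0929). Klrd1 passed without MI+CIH 2 (0.80, 0.0303) and without sham 2 and MI+CIH 2 together (0.80, 0.0493). The libraries of Cd3e, Cd4 and Klrd1 did not overlap, all higher in MI+CIH, against 11.8% of all genes above 0. Cd4 had 0.39 ± 0.23 (limma adjusted p = 0.394). Lck and Cd8a had 0.20 ± 0.26 and -0.01 ± 0.30.

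Infarction alone, MI against sham, gave no call among the 10 genes, where 1.96% of genes above the filter and 0.561% of all genes above 0 rose or fell. Cd8a stood furthest apart, with 0.628 ± 0.0219 FPKM in MI and 0.122 ± 0.0765 in sham (SD, n = 3 each), a ratio of 5.13. Its log2 fold change was 0.87 ± 0.30 (limma adjusted p = 0.174). It was the 1 gene of the 10 at an unadjusted p below 0.05 and the 1 gene whose libraries did not overlap, against 14.1% of all genes above 0. Cd4 and Lck had 0.47 ± 0.23 and 0.42 ± 0.26, while Cd3e and Cd3g had -0.06 ± 0.18 and -0.08 ± 0.24. Nkg7 had -0.55 ± 0.34, with MI 1 inside the sham range and MI 2 and MI 3 below it.

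Hypoxia alone, CIH against sham, gave no call among the 10 genes and none at an unadjusted p below 0.05, where 0.00645% of genes above the filter and 0.00392% of all genes above 0 rose or fell. The log2 fold change was below 0 for 9 of the 10 genes, with a median of -0.24 against -0.07 over all genes that passed the filter. Cd3e had -0.36 ± 0.18 (limma adjusted p = 0.626) and was the 1 gene whose libraries did not overlap, lower in CIH, against 9.04% of all genes above 0. Klrd1 was the 1 gene above 0, with 0.20 ± 0.16.

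The interaction asks whether hypoxia changed the genes differently with and without infarction, by subtracting the CIH against sham difference from the MI+CIH against MI difference. None of the 10 passed the limma test, where 0.0774% of genes above the filter and 0.00392% of all genes above 0 rose or fell, and Cd3e, Cd3g and Nkg7 had an unadjusted p below 0.05. The values were 1.02 ± 0.26 for Cd3e (limma adjusted p = 0.116), 0.90 ± 0.34 for Cd3g (0.229) and 1.08 ± 0.48 for Nkg7 (0.227). Cd8a had 0.07 ± 0.42. In the 4 comparisons with no call, limma-voom on recovered reads called none of the 9 genes with whole reads either. MI+CIH against MI and CIH against sham share no library, but the comparisons against the same group above share theirs and are not independent of each other.

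Rag1 and Dntt, genes of immature lymphocytes, were highest in the same library as Cd8a. Rag1, a recombinase gene used while receptor genes are assembled, stood at 0.314, 2.34 and 0.0054 FPKM in MI+CIH, 0.600, 1.05 and 1.43 in MI, 0.0108, 0.0272 and 0 in CIH, and 0.00513, 0.113 and 0.0200 in sham. Dntt, the terminal transferase gene of the same stage, stood at 0.180, 1.54 and 0.0168 FPKM in MI+CIH, 0.168, 0.633 and 0.580 in MI, 0.0167, 0.0703 and 0 in CIH, and 0, 0.05 and 0 in sham. Both were highest in MI+CIH 2, as Cd8a was. In MI+CIH 3 both were near 0, while Cd8a stood at 0.324 FPKM, above every CIH and sham library. In reads, Rag1 had 54, 439 and 1 in the MI+CIH libraries and 122, 186 and 283 in the MI libraries. Neither passed a test: in MI against sham the log2 fold change was 1.45 for Rag1 (limma adjusted p = 0.173) and 0.86 for Dntt (0.351).

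Ptcra and Rag2, also genes of that stage, were at or near 0. Ptcra, which encodes the pre-T cell receptor alpha chain, was at 0 in 2 MI+CIH libraries, 1 MI library, all 3 CIH libraries and 2 sham libraries, and at most 0.0835 FPKM in the rest. Rag2 reached 0.0927 FPKM in MI+CIH 2 and 0.0569 to 0.0874 FPKM in MI. Over the thymocyte list of 8 genes the summed level was 3.23 to 8.68 FPKM in MI+CIH, 4.09 to 4.66 in MI, 1.71 to 2.91 with CIH alone and 2.49 to 3.80 in sham. Of its 4 tested genes, Cd1d1, the gene of an antigen-presenting protein that other cells carry too, rose in MI+CIH against CIH, but not without MI+CIH 2 (0.87, limma adjusted p = 0.119) or MI+CIH 3 (0.96, 0.121). None of the 4 passed limma in MI against sham, where 1 had an unadjusted p below 0.05. The part of such cells in the Cd8a values was not tested.

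**Figure D3:**
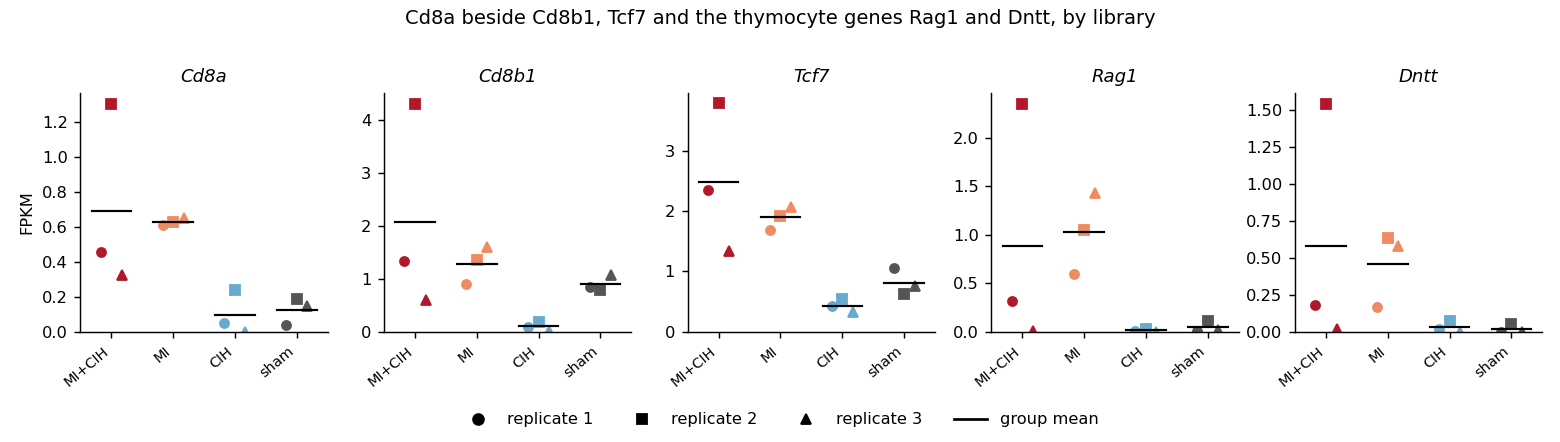
FPKM of Cd8a, its partner Cd8b1, the T cell factor gene Tcf7 and the immature lymphocyte genes Rag1 and Dntt in the 12 libraries. Each panel has its own axis from 0, points are libraries and bars are group means. MI+CIH 2 is highest in all 5 panels, at 1.30 FPKM for Cd8a and 2.34 FPKM for Rag1, and the MI libraries lie above CIH and sham for Cd8a, Tcf7, Rag1 and Dntt.

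Further T cell identity genes rose in MI+CIH against CIH beside Cd3e and Cd3g. The counts of list genes called, here and below, stand against 19.9% of all genes tested that rose and 8.26% that fell in MI+CIH against CIH, and 11.3% and 5.51% in MI+CIH against sham. Without MI+CIH 3 these shares were 12.7% and 5.55%, and 5.19% and 2.95%. Il7r, Havcr2 and Cd244a averaged at most 0.249 FPKM in CIH and sham, and passed the 0.5 FPKM filter through libraries with infarction. Such list genes are counted because they are high in those groups, so the list counts are descriptions and not tests of a list. Of 19 identity genes 8 were tested, of which 6 rose in MI+CIH against CIH, 3 rose against sham and none passed limma in the other 4 comparisons, where 2 to 6 had an unadjusted p below 0.05. Il7r, the interleukin-7 receptor gene that keeps resting T cells alive, averaged 1.68 ± 0.504 FPKM in MI+CIH and 0.116 ± 0.0912 in CIH, a log2 fold change of 1.81 (limma adjusted p = 0.00155). Tcf7, which encodes the factor TCF-1, had 1.61 (0.00266), Cd2, an adhesion receptor, 1.30 (0.00863), and Thy1, which stromal cells also carry, 1.24 (0.00508). Cd8b1, the beta chain that pairs with CD8 alpha, averaged 2.08 ± 1.96 FPKM in MI+CIH and 0.0993 ± 0.0807 in CIH, with 1.84 (limma adjusted p = 0.0088). Unlike Cd8a, it stood at 0.898 to 1.60 FPKM in MI against 0.788 to 1.07 FPKM in sham. Trac, the constant region of the receptor alpha chain, averaged 2.61 ± 0.985 FPKM in MI+CIH, 1.04 ± 0.635 in MI, 1.13 ± 0.792 in CIH and 1.92 ± 0.420 in sham. It did not pass in MI+CIH against CIH (0.98, limma adjusted p = 0.0895). Il7r (1.53), Tcf7 (1.11) and Thy1 (0.98) also rose in MI+CIH against sham. The list's median log2 fold change was 1.27 in MI+CIH against CIH, beside 0.20 over all genes tested. Without sham 2 and MI+CIH 2 together, 5 rose against CIH and 1 against sham, where Tcf7 (0.70, limma adjusted p = 0.101) and Thy1 (0.82, 0.115) did not pass. Without MI+CIH 3, 6 rose against CIH and 2 against sham, where Thy1 did not pass (0.92, 0.0704). Cd8b1, Trac and the other list genes given here that did not pass were chosen after their values were seen.

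Genes of signalling below the receptor rose in the same comparisons. Of 16, 14 were tested and 10 rose in MI+CIH against CIH and 7 against sham, with medians of 0.86 and 0.67 beside 0.20 and 0.12 over all genes tested. Many of them are shared with other blood cells. Ptprc, the gene of the leukocyte surface phosphatase CD45, averaged 4.34 ± 1.42 FPKM in MI+CIH and 1.01 ± 0.113 in CIH, with a log2 fold change of 1.64 (limma adjusted p = 0.00127). Grap2, an adaptor of the T cell receptor, had 1.30 (0.0013), Vav1, an exchange factor of blood cells, 1.72 (0.00203), and Ptpn6, the gene of the phosphatase SHP-1, 1.76 (0.0023). Against sham, Ptprc (1.14), Vav1 (1.41), Grap2 (0.72) and Ptpn6 (1.22) rose. Without MI+CIH 3, 7 rose against CIH and 4 against sham, where Ptpn6 did not pass (0.99, limma adjusted p = 0.0549).

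Killer cell receptor genes were mostly too low to test, with 5 of 15 above the filter. Ncr1, a receptor gene that marks natural killer cells in the mouse, averaged 0.258 ± 0.185 FPKM in MI+CIH, 0.145 ± 0.135 in MI, 0.134 ± 0.0633 in CIH and 0.0675 ± 0.0468 in sham. Cd244a and Tyrobp rose in MI+CIH against CIH (1.31 and 2.05) and against sham (1.15 and 1.56), which makes 2 of the 5 in each. Against sham neither passed without MI+CIH 3 (0.78, limma adjusted p = 0.0556 for Cd244a, and 1.05, 0.138 for Tyrobp), nor did Tyrobp without sham 2 and MI+CIH 2 together (1.72, 0.0717). Tyrobp encodes the signalling adaptor DAP12, which macrophages and neutrophils also use, and its 58.8 ± 39.5 FPKM in MI+CIH far exceeded the level of any killer cell receptor here.

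Of 13 granule and effector genes 7 were tested, and the shares called, 2 risen and 1 fallen in MI+CIH against CIH, were near those of all genes tested. In MI+CIH against CIH, Ctsw, a protease gene of killer cells (0.87), and the chemokine gene Ccl5 (1.28) rose, while Gzmm, the granzyme M gene, fell by 1.14 on the log2 scale (limma adjusted p = 0.00783). Ccl5 did not pass without MI+CIH 3 (1.19, 0.0901). Gzmm averaged 2.09 ± 0.954 FPKM in MI+CIH, 3.39 ± 0.508 in MI, 4.98 ± 0.462 in CIH and 5.48 ± 1.54 in sham, and also fell in MI+CIH against sham (-1.24, 0.00957). Prf1, the perforin gene, averaged 0.149 ± 0.128 FPKM in MI+CIH, 0.0654 ± 0.0191 in MI, 0.159 ± 0.156 in CIH and 0.115 ± 0.0540 in sham. Ifng, the interferon gamma gene, was listed at 0 in all MI+CIH libraries and averaged at most 0.0274 FPKM in sham.

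Helper and regulatory T cell genes gave no limma call in any of the 6 comparisons among the 5 tested of 14, with at most 1 at an unadjusted p below 0.05. Foxp3, the gene that defines regulatory T cells, averaged 0.0460 ± 0.0330 FPKM in MI+CIH, 0.00557 ± 0.00965 in MI and was listed at 0 in all CIH and sham libraries. Of 10 checkpoint genes 6 were tested. Havcr2, Btla, Lag3 and Cd86 rose in MI+CIH against CIH (1.75, 1.54, 1.03 and 0.78). Cd86 did not pass without MI+CIH 3 (0.63, limma adjusted p = 0.154) or without sham 2 and MI+CIH 2 together (0.89, 0.0644). The first 3 encode inhibitory receptors and Cd86 a ligand on antigen-presenting cells. In MI+CIH against sham 4 rose, among them Havcr2 (1.49), Btla (1.19) and Lag3 (0.87), and Cd274, the gene of the ligand PD-L1, fell by 1.07 (limma adjusted p = 0.0077). Without MI+CIH 3, 1 rose against sham, and Btla (0.91, 0.0622) and Lag3 (0.72, 0.0769) did not pass.

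Genes of presentation and recruitment accompany T cells in tissue. All 9 genes of MHC class I presentation, through which CD8 T cells see peptides, were tested. In MI+CIH against CIH 5 rose, among them B2m (1.30), H2-D1 (1.03), Tap1 (0.96) and Nlrc5 (0.93), and none passed limma against sham, where 2 had an unadjusted p below 0.05. The list's median log2 fold change was 0.93 in MI+CIH against CIH and 0.04 in MI+CIH against sham. In CIH against sham it was -0.54, where none passed limma but 5 had an unadjusted p below 0.05. Of 12 recruitment genes 10 were tested. Of these 3, against 19.9% of all genes, rose in MI+CIH against CIH: the integrin gene Itgal (1.44), the chemokine receptor gene Cx3cr1 (1.24) and the chemokine gene Cxcl16 (1.12). Against sham, 3 rose in MI+CIH: Cxcr4 (1.26), Cx3cr1 (1.29) and Cxcl16 (0.98), of which 1 did without MI+CIH 3. Cx3cr1 did not pass without MI+CIH 3 against CIH (1.01, limma adjusted p = 0.0636) or sham (1.07, 0.0805), nor did Cxcl16 against sham (0.73, 0.1). Among gamma delta and innate lymphoid genes, Zbtb16 rose in MI+CIH against CIH (1.8), the other 3 tested genes did not pass there, and Sox13 fell by 0.49 against sham, a call lost without MI+CIH 3 (-0.42, limma adjusted p = 0.116) and without sham 2 and MI+CIH 2 together (-0.51, 0.107). Zbtb16, at 88.5 ± 5.21 FPKM in MI+CIH, and Sox13 are not restricted to lymphocytes, and Trdc, the delta chain constant region, averaged at most 0.151 FPKM.

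**Figure D4:**
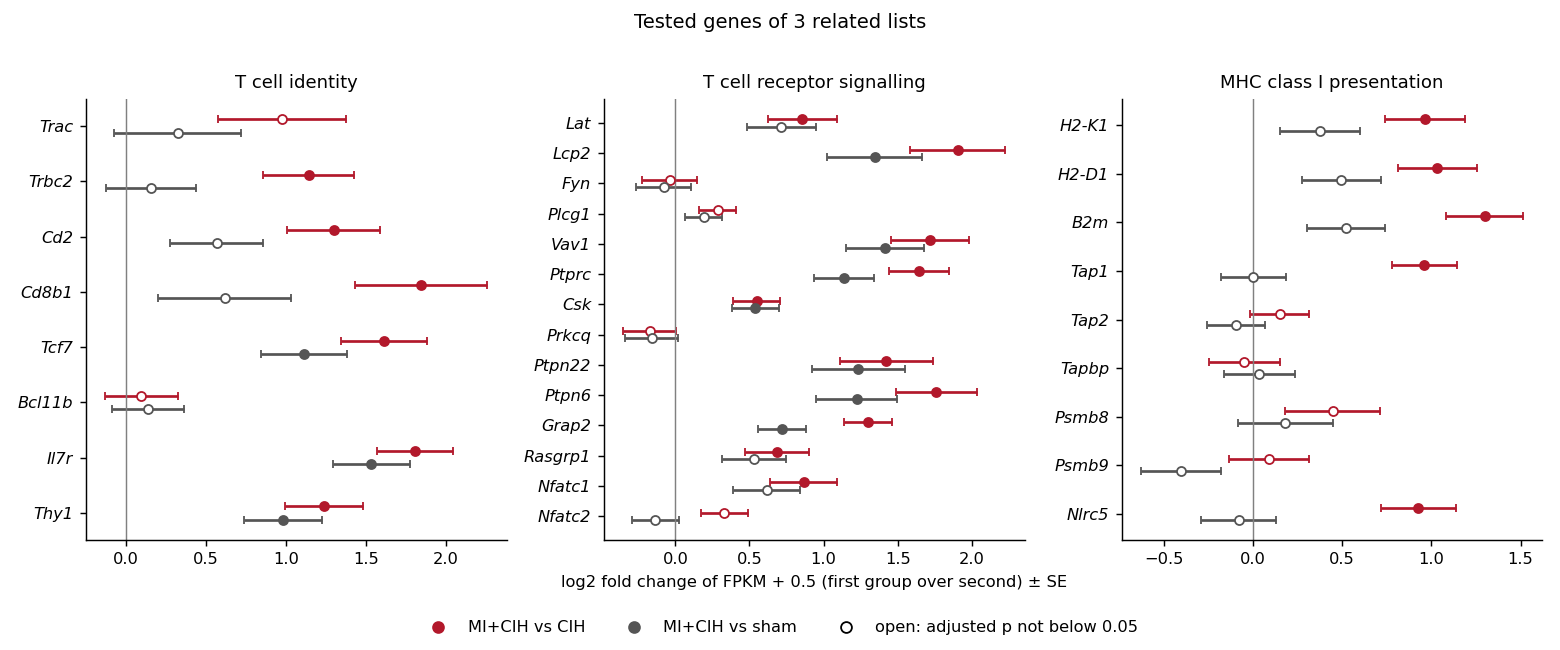
Log2 fold change of FPKM + 0.5 with its standard error for the tested genes of the T cell identity, T cell receptor signalling and MHC class I lists, in MI+CIH vs CIH and MI+CIH vs sham; filled points have a limma adjusted p below 0.05. In MI+CIH vs CIH 6 of 8, 10 of 14 and 5 of 9 are filled, and in MI+CIH vs sham 3 of 8, 7 of 14 and 0 of 9.

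Genes of several other blood cells were higher in MI+CIH too. The 8 pan leukocyte genes summed to 112 to 205 FPKM in MI+CIH, 61.2 to 78.1 in MI, 28.8 to 68.6 with CIH alone and 56.5 to 76.3 in sham, and 7 of 8 rose in MI+CIH against CIH. All 10 macrophage genes rose in that comparison, but 2 without MI+CIH 3, with sums of 598 to 1018 FPKM in MI+CIH, 386 to 533 in MI, 176 to 415 with CIH alone and 239 to 364 in sham. B cell and antibody genes summed to 552 to 890 FPKM in MI+CIH, 185 to 652 in MI, 11.1 to 37.7 with CIH alone and 57.2 to 408 in sham, and 6 of 7 tested rose. Of 5 neutrophil genes tested limma called none, with 2 at an unadjusted p below 0.05, though 3 rose without MI+CIH 2. Of 5 mast cell genes none was called and none had an unadjusted p below 0.05. Dendritic cell genes summed to 8.23 to 9.90 FPKM in MI+CIH and 4.91 to 6.34 FPKM in CIH, and mast cell genes to 7.58 to 33.4 and 5.35 to 13.1 FPKM. In MI and sham, dendritic cell genes summed to 6.78 to 9.35 and 5.31 to 5.59 FPKM, and mast cell genes to 4.89 to 17.3 and 6.35 to 10.4 FPKM. The dendritic cell sums thus overlapped between MI+CIH and MI, and the mast cell sums between MI+CIH and every other group. Fat cell genes, which mark tissue around the heart, summed to 220 to 421 FPKM in MI+CIH and 130 to 189 FPKM in CIH. In MI and sham they summed to 145 to 234 and 87.8 to 178 FPKM. Of 5 tested, 4 rose in MI+CIH against CIH, among them Adipoq, at 51.9 ± 15.8 and 2.38 ± 1.49 FPKM (log2 fold change 4.30, limma adjusted p = 0.0026). Fabp4, at 164 FPKM in MI+CIH, weighs most in these sums and did not pass (0.04, 0.913). Fibroblast genes summed to 527 to 1111 FPKM in MI+CIH and 147 to 262 FPKM in CIH. In MI and sham they summed to 377 to 624 and 178 to 215 FPKM. The part of these cells and tissues in the T cell values was not tested.

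Relative to Ptprc, the MI+CIH libraries of Cd3e no longer lay above those of the other groups. Cd3e was 18.9%, 29.5% and 6.45% of the Ptprc level in MI+CIH, 6.30%, 12.7% and 10.1% in MI, 10.2%, 12.9% and 5.43% in CIH, and 17.9%, 21.3% and 10.9% in sham. The groups overlapped, and MI+CIH 3, the library with the most leukocyte transcripts, was near the bottom. The sum of the 4 receptor chains was 1.67, 2.14 and 1.06 FPKM in MI+CIH, 0.734, 0.815 and 1.06 in MI, 0.527, 0.896 and 0.165 in CIH, and 0.649, 1.22 and 1.05 in sham. The ratio of Cd4 to Cd8a was 2.16, 1.01 and 2.90 in MI+CIH, 0.915, 1.32 and 1.13 in MI, 5.05 and 1.46 in the first 2 CIH libraries, with no Cd8a read in the third, and 6.54, 1.38 and 4.57 in sham. The MI libraries were within 0.915 to 1.32, while the denominators in CIH and sham rested on at most 29 reads of Cd8a.

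**Figure D5:**
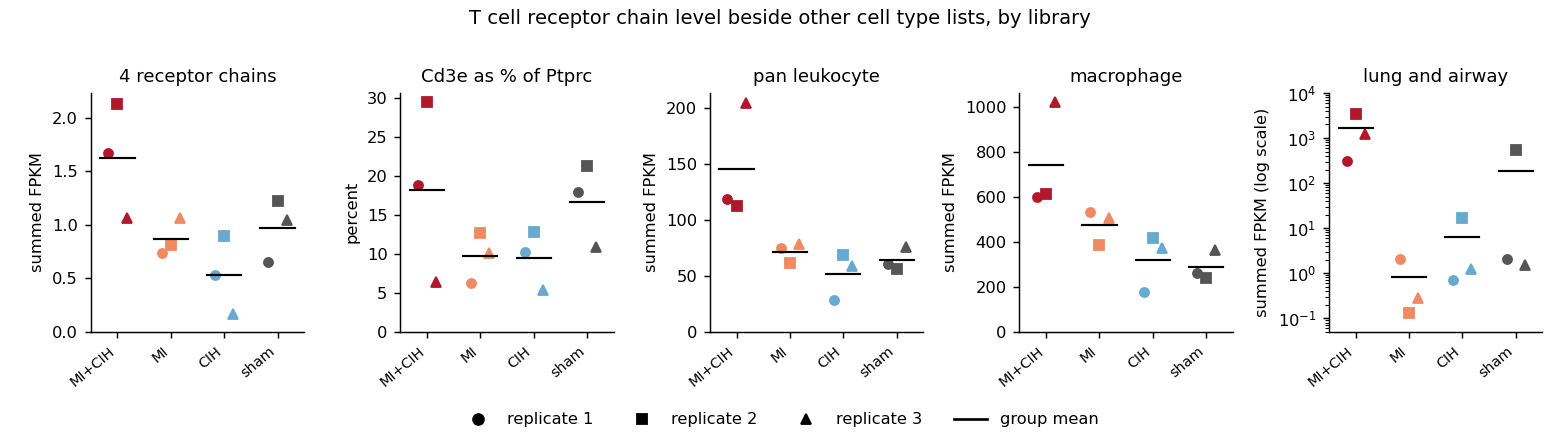
Summed FPKM of the 4 receptor chains, Cd3e as a percent of Ptprc, and summed FPKM of pan leukocyte, macrophage and lung and airway genes in the 12 libraries; axes start at 0 except the lung panel, which has a log axis, points are libraries and bars are group means. MI+CIH 3 is highest for leukocyte and macrophage genes (205 and 1018 FPKM) but lowest of its group for the receptor chains (1.06 FPKM), and MI+CIH 2 is highest for lung genes (3483 FPKM).

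Across the 12 libraries, Cd4 and Cd8a varied together at r of 0.84 and Lck and Cd8a at 0.83, while Nkg7 and Cd8a gave 0.09. Nkg7 was nearest to Gzma, at 0.61, and Klrd1 to Cd3e, at 0.62. These values share library depth and group, and are given as a description. The 8 genes whose pattern over the 12 libraries was most like the mean of the 5 tested genes were Ror2 (r of 0.94), Ubtd2 (0.93), Map1b (0.93), Zfp37 (0.93), Zc3h12b (0.93), Plxna3 (0.92), Fbln7 (0.92) and H2-D1 (0.92). H2-D1, a class I heavy chain gene, averaged 94.2 ± 0.543 FPKM in MI+CIH, 82.5 ± 12.0 in MI, 48.0 ± 19.1 in CIH and 66.8 ± 2.93 in sham.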

How the data were processed

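Heart RNA of 12 libraries in 4 groups was analysed from 1 deposited table, whose FPKM values the authors deposited with 1 column per library. That unit is read from the values, since the table does not name it. Tools listed in the submitters' processing notes are HISAT, DESeq 1.8.3 and featureCounts 1.5.0-p3, on mm10, with no role for each. The labels name a small RNA kit, while the values cover long messenger RNAs. A count model had been planned for counts. As the table holds FPKM, log2(FPKM + 0.5) was tested with limma 3.58.1 (trend and robust, statmod 1.5.0, R 4.3.3) at an adjusted p of 0.05, for the 15503 genes that reached 0.5 FPKM in 3 or more libraries. The spread was shared over all groups. The scripts were tested on simulated data.

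With GENCODE M21 exon lengths, 22822 of 25429 genes (89.7%) came out as whole reads within 0.1 reads in all libraries, at 26.1 to 33.4 M reads per library, and limma-voom on them was an alternative. The 10 genes and all lists were chosen with earlier results of these data known. Genes named are the 10, up to 4 passing genes per list and comparison, the 8 most alike in pattern, and those said to be chosen after their values were seen. Trgc1, Trgc2 and Ccl21a were not matched to 1 row each, and 3 genes of the signalling and recruitment lists are not reported here. Replicate numbers were not taken as pairs. Other alternatives were pseudocounts of 0.1 and 1, a filter on a mean of 1 FPKM or none, only the groups compared, a replicate block and leaving out each library. Median-of-ratios scaling and leaving out sham 2 and MI+CIH 2 together were added after seeing the data.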

Additional observations from a re-analysis of the deposited data

Results flagged for a closer look

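Cd3e, the epsilon chain of the T cell receptor complex, was higher in MI+CIH than in MI and lower in CIH than in sham, library by library, but no test of this passed. All 3 MI+CIH libraries (0.376 to 0.890 FPKM) lay above all 3 MI libraries (0.167 to 0.293 FPKM), and all 3 CIH libraries (0.0517 to 0.147 FPKM) lay below all 3 sham libraries (0.218 to 0.347 FPKM). Libraries were apart in this way in 11.8% and 9.04% of all genes above 0. The log2 fold change was 0.66 in MI+CIH against MI (limma adjusted p = 0.125) and -0.36 in CIH against sham (0.626). The test of that difference, the interaction, gave 1.0209 on the log2 scale (limma adjusted p = 0.116) and did not pass. Without single libraries it ranged from 0.89 to 1.22, with adjusted p from 0.0771 to 0.258. The level of Cd3e in CIH rested on 11, 20 and 7 reads.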

How the results depend on the processing

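The counts of called genes among the 10 moved as follows. In MI+CIH against CIH, 3 of 5 were called in the main fit, 6 of 10 with no filter, 1 with only the groups compared and 1 without sham 2 and MI+CIH 2 together, and 2 to 3 with each library left out. For MI+CIH against sham, 1 was called in the main fit, 2 with no filter, 0 with only the groups compared, 0 without sham 2 and MI+CIH 2 together, and 0 to 1 with each library left out. The cause was not tested, beyond the fewer samples of some fits. The replicate block left the calls at 3 and 1. In the fit without filter, Klrd1 in MI+CIH against CIH did not pass with the replicate block (0.55, limma adjusted p = 0.0792), with median-of-ratios scaling (0.49, 0.0681), with a pseudocount of 0.1 (1.32, 0.0826) or by limma-voom (2.41, 0.142). Cd3g did not pass with median-of-ratios scaling (0.77, 0.0588) or without sham 2 and MI+CIH 2 together (0.62, 0.111), and with only the groups compared Cd3e (0.0957), Cd3g (0.183), Lck (0.0615), Cd8a (0.14) and Klrd1 (0.187) did not pass while Cd4 did (0.0406). The other 4 comparisons gave no call among the filtered genes under any alternative run. A mean of at least 1 FPKM leaves none of the 10 to test.

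Same-numbered libraries correlated at r from -0.175 to 0.128 over 18 pairs, 3 of them over 0.1, so the numbers were not taken to pair them. Every library total rests on 26.1 M reads or more, but with 0 to 150 reads per gene and library, differences of a few reads decide the low genes.

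Of 854 alternatives to single values, most to values that were not called, 784 kept direction and side of the threshold, 35 lost a call and 3 gained one. In MI+CIH against CIH the call was lost in 0 of 14 for Cd4, 1 of 13 for Cd3e and 2 of 14 for Lck. There it was also lost in 5 of 14 for Cd8a, 7 of 13 for Cd3g and 9 of 13 for Klrd1. Against sham it was lost in 6 of 14 for Cd4 and 5 of 13 for Klrd1. The other 32 alternatives changed sign, all 32 for values that did not pass. Without sham 2 and MI+CIH 2 together, the log2 fold change became 0.0131 for Cd3e and 0.0365 for Cd3g in MI against sham, 0.0006 for Cd247 in MI+CIH against MI and -0.3451 for Cd8a in the interaction. Gzma in CIH against sham became 0.0083 with a pseudocount of 1 and 0.0035 with median-of-ratios scaling, and Cd8a in MI+CIH against MI 0.0117 with a pseudocount of 1. With each library left out, the range in MI against sham was -0.1131 to 0.0131 for Cd3e, -0.2096 to 0.0365 for Cd3g and -0.0177 to 0.1429 for Cd3d. In CIH against sham it was -0.1792 to 0.0931 for Cd247, -0.2412 to 0.0402 for Cd8a and -0.2611 to 0.2469 for Gzma. In MI+CIH against MI it was -0.0515 to 0.0622 for Cd247 and -0.3482 to 0.2152 for Cd8a. It was -0.2314 to 0.0168 for Cd247 in MI+CIH against CIH and -0.0556 to 0.2999 for Nkg7 in MI+CIH against sham. In the interaction it was -0.009 to 0.2177 for Cd3d, -0.104 to 0.1683 for Cd247 and -0.2721 to 0.2912 for Cd8a.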
